A study of Homo sapiens with 6 samples.

Results

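The 9 genes described here encode the human kinases that phosphorylate the translation initiation factor eIF2, 3 regulators of those kinases, and the subunits that direct a phosphatase back to eIF2. They were chosen by symbol, each symbol matched to 1 Ensembl row of the deposited gene counts, and all 9 rows were found among 64252. The kinases are EIF2AK1 (HRI), EIF2AK2 (PKR), EIF2AK3 (PERK) and EIF2AK4 (GCN2). The regulators are GCN1, IMPACT and DNAJC3, and the phosphatase subunits are PPP1R15A (GADD34) and PPP1R15B (CReP).

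Each kinase answers a different stress, and all of them phosphorylate the alpha subunit of eIF2 at the same serine, which lowers general protein synthesis and favours translation of ATF4, a transcription factor of amino acid and redox genes. GCN2 responds to uncharged tRNA and stalled ribosomes when amino acids run short, PERK to unfolded proteins in the endoplasmic reticulum, HRI to haem shortage and mitochondrial stress, and PKR to double-stranded RNA. PPP1R15A and PPP1R15B recruit the catalytic subunit of protein phosphatase 1 and remove the phosphate, PPP1R15A as an inducible feedback subunit and PPP1R15B as a constitutive one. These are transcript data, so neither kinase activity nor eIF2 phosphorylation was measured.

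All libraries came from SK-N-BE(2), a human neuroblastoma line with amplified MYCN, whose N-Myc protein is the subject of the series title. Cells carried BCAT1 hairpin 1 (shBCAT1#1), BCAT1 hairpin 2 (shBCAT1#2) or the control hairpin (shControl, also labelled shNC), with 2 libraries per group. BCAT1 is the cytosolic transaminase of leucine, isoleucine and valine. The labels give neither the time after hairpin delivery nor whether replicates were separate cultures, so each p-value reflects only how far these libraries spread, which may be technical.

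Library totals ran from 32333416 to 39321388 counts. BCAT1 averaged 55.5 ± 0.31 CPM with hairpin 1, 113 ± 3.12 CPM with hairpin 2 and 467 ± 11.8 CPM with the control hairpin (SD, n = 2 each), and fell with both hairpins (edgeR adjusted p = 1.8e-08 and 1.3e-07). CPM are counts divided by library size after TMM scaling. Of 8 markers of adrenergic neuroblastoma, 7 averaged over 1 CPM. Their summed level was 1104 to 1161 CPM with hairpin 1, 1031 to 1038 CPM with hairpin 2 and 1310 to 1357 CPM in controls. Of 8 mesenchymal or fibroblast markers 6 averaged over 1 CPM, and the sum of the list was 6364 to 6803, 4895 to 5092 and 6661 to 6716 CPM in the same order. Most of that sum was VIM, at a mean of 5282 CPM over the 6 libraries, while COL1A2 averaged 0.26 CPM and PRRX1 0.43 CPM. The sums of the 2 lists therefore do not compare the 2 cell states. Of 5 leukocyte markers 1 averaged over 1 CPM, with sums of 3.03 to 5.29 CPM over the 6 libraries, and CD3E was at 0. Epithelial markers (4 of 5 over 1 CPM) summed to 17.7 to 26.4 CPM, and Schwann cell precursor or melanocyte markers (2 of 5) to 6.50 to 10.5 CPM with SOX10 at 0. The part of these lists in the results was not tested. In bulk RNA, fewer cells of a type and less RNA per cell cannot be told apart.

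Knockdown cells held more transcript of most of the 9 genes, with EIF2AK3 far ahead of the rest. Over both hairpins against control, 6 of the 9 rose, 0 fell and 3 did not pass at an edgeR adjusted p under 0.05. Among all 18734 genes tested, 23.6% were called higher and 26.4% lower. The median log2 fold change was 0.34 over the 9 genes and −0.01 over all genes tested. In 7 of the 9 genes all 4 knockdown libraries lay above both control libraries, a pattern seen upwards in 22% of all genes. Each hairpin alone also gave 6 calls upwards and 0 downwards, against 24.2% of all genes called higher and 24.9% lower with hairpin 1, and 23.9% higher and 25.4% lower with hairpin 2. These comparisons share the control libraries. EIF2AK1 passed with hairpin 1 and PPP1R15A with hairpin 2, and the other 5 genes, EIF2AK2, EIF2AK3, EIF2AK4, IMPACT and PPP1R15B, passed with each, as did 13% of all genes upwards.

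**Figure D1:**
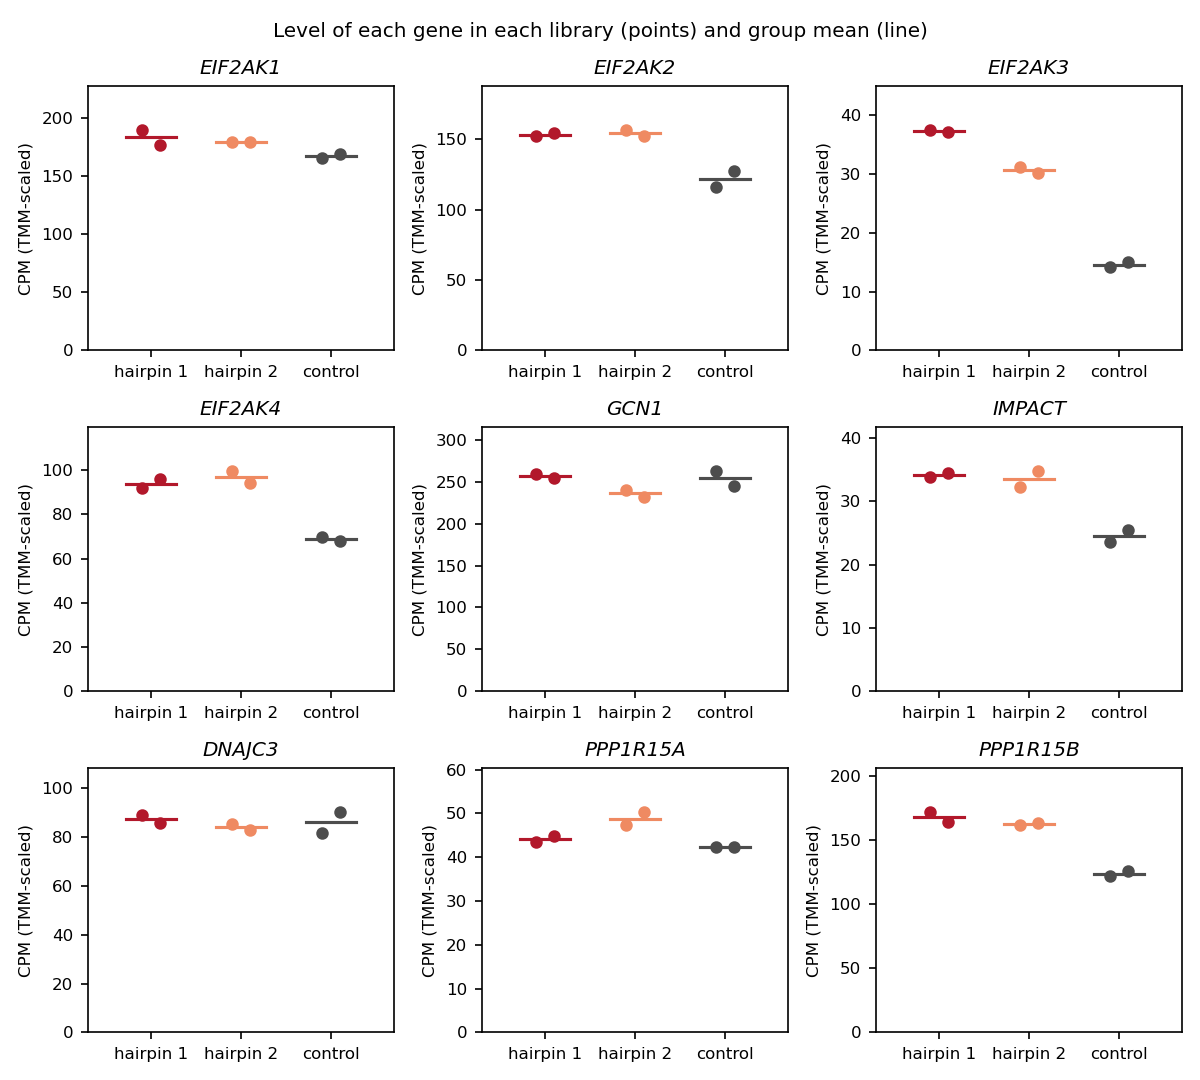
CPM (TMM-scaled, linear axis from 0) of each of the 9 genes, with a point per library and a line at the mean of the 2 libraries of hairpin 1, hairpin 2 and control. EIF2AK3 stands at 30.2 to 37.5 CPM in the knockdown libraries and at 14.2 and 15.0 CPM in controls, and 7 of the 9 panels show no overlap between knockdown and control libraries.

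EIF2AK3 encodes PERK, the kinase that spans the endoplasmic reticulum membrane (ENSG00000172071, chromosome 2, 88556741 to 88627576, minus strand, hg38). It had 37.5 and 37.2 CPM with hairpin 1, 31.2 and 30.2 CPM with hairpin 2, and 14.2 and 15.0 CPM with the control hairpin. All 4 knockdown libraries were above both controls, and both hairpin 1 libraries were above both hairpin 2 libraries. The rise was 2.56-fold with hairpin 1 (log2 change 1.36 ± 0.07 SE, edgeR adjusted p = 2.4e-06) and 2.10-fold with hairpin 2 (1.07, SE 0.07, edgeR adjusted p = 1e-05). Over both hairpins it rose 2.32-fold (log2 change 1.22 ± 0.06 SE, edgeR adjusted p = 3.5e-06), and it ranked at place 543 by size among genes with a positive fold change. It was the single member that passed when the test asked for a change above 1.5-fold (edgeR adjusted p = 0.00017), as did 2.83% of all genes upwards. It also passed with each hairpin, where 4.61% of genes did so upwards with hairpin 1 and 3.99% with hairpin 2. Between hairpins none of the 9 passed that test, against 5.11% of genes higher and 4.36% lower with hairpin 2. Counts behind these levels were 1453 and 1208, 1261 and 1174, then 536 and 555 in controls.

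The bases before the annotated gene start of EIF2AK3 are shown because this transcript moved most (RefSeq, GRCh38.p14, chr2:88627577-88627714, minus strand, 5′ to 3′).
EIF2AK3: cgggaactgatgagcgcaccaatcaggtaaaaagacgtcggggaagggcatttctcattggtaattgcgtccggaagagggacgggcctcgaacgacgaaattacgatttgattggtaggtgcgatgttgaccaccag
Within the window of 250 bases before and 50 after its RefSeq start, EIF2AK3 held no match on either strand to an ER stress element (CCAAT and CCACG with 9 bases between them), an interferon response element (GAAA, 2 bases, GAAA), a C/EBP-ATF composite (TGATG, any base, AA, any base), an E-box (CACGTG) or a cAMP response element (TGACGTCA). Exons of EIF2AK3 overlap 2 antisense genes over 15.1% of their length, and whether counting used strand is not given in the sources used here. AC104134.1 had 0 counts in 5 of the 6 libraries. AC062029.1 had 2.35 and 2.65 CPM with hairpin 1, 2.60 and 2.36 CPM with hairpin 2, and 1.11 and 1.97 CPM in controls.

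EIF2AK4 encodes GCN2, the kinase of the amino acid response (ENSG00000128829, chromosome 15, 39934146 to 40035591, plus strand). It had 91.9 and 95.7 CPM with hairpin 1, 99.5 and 93.9 CPM with hairpin 2, and 69.5 and 67.9 CPM in controls. The knockdown libraries were all higher than the controls, and the hairpins overlapped. EIF2AK4 rose 1.39-fold over both hairpins (log2 change 0.47 ± 0.04 SE, edgeR adjusted p = 3.4e-05). The hairpins differed by 0.04 on the log2 scale, hairpin 2 minus hairpin 1, with a 95% interval from −0.06 to 0.15.

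EIF2AK2 encodes PKR, which is also an interferon-inducible gene (ENSG00000055332, chromosome 2, 37099210 to 37157065, minus strand). It had 152 and 154 CPM with hairpin 1, 157 and 152 CPM with hairpin 2, and 116 and 127 CPM in controls. All knockdown libraries were above both controls, whose own gap was wider than that between the replicates of either hairpin. Against control EIF2AK2 rose by 0.33 with hairpin 1 (SE 0.05, edgeR adjusted p = 0.00076) and by 0.34 with hairpin 2 (SE 0.05, edgeR adjusted p = 0.00063). This call did not survive a correction for GC content and length, given below.

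EIF2AK2 is also shown by sequence, for a match to the interferon response element at its RefSeq start. The matched bases run from position −6 to position 4 around the start (GRCh38.p14, chr2:37156977-37156986, minus strand), and 3.57% of 35116 promoter windows hold such a match.
EIF2AK2 element: gaaaacgaaa
The bases before its annotated gene start follow, with an E-box in capitals, a motif in 7.26% of windows (chr2:37157066-37157230, minus strand).
EIF2AK2: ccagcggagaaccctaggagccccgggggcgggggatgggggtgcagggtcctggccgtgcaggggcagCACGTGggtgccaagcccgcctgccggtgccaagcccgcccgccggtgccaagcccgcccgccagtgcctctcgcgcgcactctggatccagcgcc
Other interferon-stimulated genes were split. Of 24 tested of 30 listed, 4 rose, 5 fell and 15 did not pass over both hairpins (median log2 fold change 0.01). Among all genes tested, 23.6% were higher and 26.4% lower. In the fit of protein-coding genes, 5 of the list were higher and 6 lower after the correction for GC content and length, against 4 and 8 before it. Of all genes in that fit, 22.5% were higher and 30.8% lower after it, against 28.8% and 31.8% before it. The list members with the smallest p were IFITM3 (−1.01) and IFI6 (−0.62), which fell, and the helicase DDX60 (0.58), which rose.

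EIF2AK1 encodes HRI (ENSG00000086232, chromosome 7, 6022244 to 6059230, minus strand). It had 189.7 and 177 CPM with hairpin 1, 179 and 179 CPM with hairpin 2, and 166 and 169 CPM in controls. All knockdown libraries were above the controls, by a narrow margin. The fold change over both hairpins was 1.08 (log2 0.11, SE 0.04, edgeR adjusted p = 0.038). With hairpin 1 the log2 change was 0.13 (SE 0.04, edgeR adjusted p = 0.040), and with hairpin 2 the change was 0.10 (SE 0.04, edgeR adjusted p = 0.10). The call over both hairpins was lost without replicate 1 of hairpin 1 (edgeR adjusted p = 0.085), without replicate 1 or 2 of hairpin 2 (0.11 and 0.095) and without replicate 1 or 2 of the control (0.19 and 0.077). A stretch of 9.59% of its exonic bases is shared with AIMP2 on the opposite strand. AIMP2 averaged 91.2 CPM with hairpin 1, 66.0 CPM with hairpin 2 and 83.9 CPM in controls.

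Per kilobase of exon, EIF2AK1 was the most abundant of the kinases in every group, at 33.0 ± 1.61 CPM per kb with hairpin 1, 32.3 ± 0.019 with hairpin 2 and 30.2 ± 0.48 in controls (SD, n = 2 each). EIF2AK3 was the least abundant, at 6.87 ± 0.032, 5.65 ± 0.14 and 2.68 ± 0.11 CPM per kb in the same groups. As a share of the summed level per kb of the 4 kinases, EIF2AK3 held 11.1% ± 0.17 with hairpin 1, 9.35% ± 0.12 with hairpin 2 and 5.37% ± 0.081 in controls. EIF2AK1 held 53.3%, 53.5% and 60.5% in those groups. The place of EIF2AK4 depended on the length used. With all annotated exons it stood below EIF2AK2 in each group, at 7.85 against 14.3 CPM per kb with hairpin 1, while with the longest transcript it stood above it, at 17.1 against 15.3. With the longest transcript the libraries of EIF2AK4 and EIF2AK2 overlapped in controls.

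GCN1, the ribosome-bound activator of GCN2, had 259.5 and 254 CPM with hairpin 1, 240.4 and 232 CPM with hairpin 2, and 263 and 245 CPM in controls (ENSG00000089154, chromosome 12, 120127203 to 120194710, minus strand). Hairpin 1 libraries lay between the controls, and both hairpin 2 libraries lay below them. No comparison of GCN1 passed: the change was 0.02 with hairpin 1 (95% interval −0.09 to 0.12, edgeR adjusted p = 0.79), −0.10 with hairpin 2 (−0.21 to 0.00, edgeR adjusted p = 0.094) and −0.12 for hairpin 2 minus hairpin 1 (−0.23 to −0.02, edgeR adjusted p = 0.062).

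IMPACT competes with GCN2 for GCN1 and so restrains GCN2 (ENSG00000154059, chromosome 18, 24426616 to 24453535, plus strand). It had 33.8 and 34.5 CPM with hairpin 1, 32.2 and 34.7 CPM with hairpin 2, and 23.6 and 25.5 CPM in controls. All knockdown libraries were above the controls, and the hairpins overlapped. IMPACT rose 1.38-fold over both hairpins (log2 change 0.46 ± 0.07 SE, edgeR adjusted p = 0.00045). Its ratio to EIF2AK4, both per kb, was 0.89 ± 0.013 with hairpin 1, 0.84 ± 0.080 with hairpin 2 and 0.87 ± 0.063 in controls, and the groups overlapped. Its ratio to GCN1 was 0.26 ± 0.0076, 0.28 ± 0.022 and 0.19 ± 0.020, with no overlap between knockdown and control libraries. These ratios were not tested and rest on uncorrected values. GC content is 38.0% for IMPACT and 56.3% for GCN1. After the correction for GC content and length, given below, IMPACT changed by 0.23 and GCN1 by −0.07 over both hairpins.

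DNAJC3, the endoplasmic reticulum co-chaperone p58IPK that was described as an inhibitor of PKR and PERK, had 88.9 and 85.9 CPM with hairpin 1, 85.5 and 83.0 CPM with hairpin 2, and 81.8 and 90.2 CPM in controls (ENSG00000102580, chromosome 13, 95677139 to 95794989, plus strand). All knockdown libraries lay between the controls. The change over both hairpins was −0.0030 on the log2 scale (95% interval −0.11 to 0.11, edgeR adjusted p = 0.97). Per kb, DNAJC3 stood at 2.27 ± 0.044 times EIF2AK3 with hairpin 1, 2.67 ± 0.010 times with hairpin 2 and 5.73 ± 0.17 times in controls.

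PPP1R15B, the constitutive phosphatase subunit, had 172 and 164 CPM with hairpin 1, 162 and 163 CPM with hairpin 2, and 122 and 126 CPM in controls (ENSG00000158615, chromosome 1, 204403387 to 204411791, minus strand). All knockdown libraries were above the controls. PPP1R15B rose 1.33-fold over both hairpins (log2 change 0.42 ± 0.04 SE, edgeR adjusted p = 3.6e-05). The hairpins differed by −0.05, hairpin 2 minus hairpin 1 (95% interval −0.14 to 0.05).

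PPP1R15A, the stress-inducible subunit, had 43.5 and 44.7 CPM with hairpin 1, 47.3 and 50.3 CPM with hairpin 2, and 42.2 and 42.4 CPM in controls (ENSG00000087074, chromosome 19, 48872392 to 48876057, plus strand). All knockdown libraries were above the controls, those of hairpin 1 by little. With hairpin 2 PPP1R15A rose 1.15-fold (log2 change 0.21 ± 0.06 SE, edgeR adjusted p = 0.015). That call was lost without replicate 2 of hairpin 2 (edgeR adjusted p = 0.11) or replicate 1 of the control (0.057). With hairpin 1 the change was 0.06 (SE 0.06, edgeR adjusted p = 0.41), and over both hairpins 0.13 (SE 0.05, edgeR adjusted p = 0.051), which passed with RLE scaling (0.042) and with a filter of 1 CPM in 2 libraries (0.032). Per kb, the ratio of PPP1R15A to PPP1R15B was 0.45 ± 0.023 with hairpin 1, 0.51 ± 0.019 with hairpin 2 and 0.58 ± 0.011 in controls (SD, n = 2 each), without overlap between the groups and not tested. That order rests on uncorrected values. After the correction for GC content and length the log2 fold change of PPP1R15A was above that of PPP1R15B over both hairpins (0.43 and 0.26). The same held with hairpin 2 (0.55 and 0.20) but not with hairpin 1 (0.316 and 0.324).

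The upstream bases of the phosphatase subunits are shown because PPP1R15A is a known target of stress transcription factors and each holds a match to a site of the ATF family, in capitals. That of PPP1R15A is a cAMP response element at positions −58 to −51 from the RefSeq start (chr19:48872171-48872391, plus strand), a motif added after the sequence was seen. That of PPP1R15B is a C/EBP-ATF composite at positions −227 to −219 (chr1:204411818-204412067, minus strand). All promoter windows held these motifs in 1.85% and 3.61% of cases.
PPP1R15A: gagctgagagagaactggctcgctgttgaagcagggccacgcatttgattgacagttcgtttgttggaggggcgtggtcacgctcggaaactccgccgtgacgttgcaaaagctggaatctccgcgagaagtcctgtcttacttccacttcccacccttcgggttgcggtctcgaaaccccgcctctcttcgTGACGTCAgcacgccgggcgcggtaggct
PPP1R15B: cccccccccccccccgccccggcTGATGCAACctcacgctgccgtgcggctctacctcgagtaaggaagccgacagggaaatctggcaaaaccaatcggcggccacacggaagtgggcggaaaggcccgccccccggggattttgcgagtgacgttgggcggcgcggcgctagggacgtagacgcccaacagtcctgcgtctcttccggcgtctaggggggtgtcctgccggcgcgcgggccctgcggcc
A match is a description of these letters only. Promoter windows were found for 8 of the 9 genes, all but EIF2AK1, and EIF2AK4, GCN1, IMPACT and DNAJC3 held none of the 5 motifs.

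The hairpins were compared directly to ask whether the 9 genes differed with the depth of the BCAT1 knockdown or with the hairpin. Of the 9, EIF2AK3 alone passed without a correction for GC content and length, lower with hairpin 2 than with hairpin 1 by 0.28 in log2 units (SE 0.07, 95% interval −0.44 to −0.125, edgeR adjusted p = 0.0096). Among all genes 23.3% were lower and 22.9% higher with hairpin 2. The EIF2AK3 difference was lost without replicate 2 of hairpin 2 (edgeR adjusted p = 0.066). BCAT1 itself was higher with hairpin 2 than with hairpin 1 by 1.03 in log2 units (SE 0.04, edgeR adjusted p = 7.3e-07), and dose cannot be told apart from the identity of the hairpin. After the correction 5 of the 9 passed between hairpins, with EIF2AK3 (−0.34), EIF2AK2 (−0.16), DNAJC3 (−0.18) and PPP1R15B (−0.12) lower and PPP1R15A (0.23) higher with hairpin 2 (edgeR adjusted p from 0.00076 to 0.023). In that fit 33% of genes were lower and 26.8% higher with hairpin 2.

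**Figure D2:**
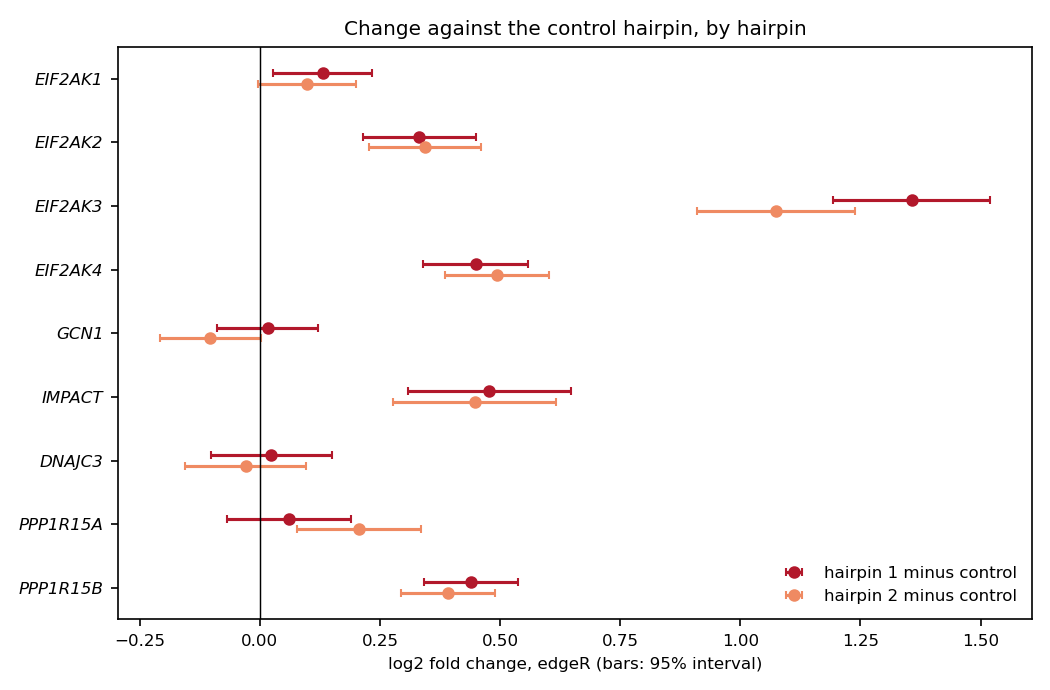
Log2 fold change of each gene against the control hairpin (x axis), hairpin 1 above hairpin 2 for each gene, with 95% intervals from the edgeR fit. EIF2AK3 lies near 1.36 and 1.07, and the intervals of EIF2AK2, EIF2AK4, IMPACT and PPP1R15B exclude 0 with each hairpin.

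Fold changes in these libraries followed the base composition and length of transcripts. Across 13907 protein-coding genes the Spearman correlation of log2 fold change over both hairpins was −0.44 with GC content and 0.38 with exon length, as a description of genes that share libraries. After removal of a smooth trend with both per library, EIF2AK3 kept a rise of 1.08 (SE 0.06, edgeR adjusted p = 3e-07). EIF2AK4 kept 0.18 (SE 0.04, edgeR adjusted p = 0.0032), IMPACT 0.23 (SE 0.06, edgeR adjusted p = 0.0085) and PPP1R15B 0.26 (SE 0.04, edgeR adjusted p = 0.00014), all smaller than before it. Length in this correction was that of all annotated exons, 11957 bases for EIF2AK4 against 5499 in its longest transcript. A correction with the longest transcript was not run.

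EIF2AK2, with a GC content of 38.7% and exons longer than in 90.2% of those genes, turned to −0.09 (SE 0.04, edgeR adjusted p = 0.054), and EIF2AK1 lost its call (0.03, SE 0.04, edgeR adjusted p = 0.53). PPP1R15A, the most GC-rich of the 9 at 58.8%, moved the other way, to a rise of 0.43 (SE 0.05, edgeR adjusted p = 5.1e-05). It then passed with hairpin 1 (0.32, edgeR adjusted p = 0.00093) as well as hairpin 2 (0.55, edgeR adjusted p = 2.7e-05). DNAJC3, at 39.9% GC, became lower in knockdown cells by −0.23 (SE 0.04, edgeR adjusted p = 0.00037). GCN1 stayed without a call over both hairpins (−0.07, SE 0.04, edgeR adjusted p = 0.14) and passed downwards with hairpin 2 (−0.12, edgeR adjusted p = 0.037). With hairpin 2 alone IMPACT then missed the threshold (0.15, edgeR adjusted p = 0.092) and EIF2AK2 was lower (−0.17, edgeR adjusted p = 0.0063). Within these protein-coding genes, 5 of the 9 were higher and 1 lower over both hairpins after the correction, and 7 and 0 before it. Of all 13907 genes, 22.5% were higher and 30.8% lower after it, and 28.8% and 31.8% before it.

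**Figure D3:**
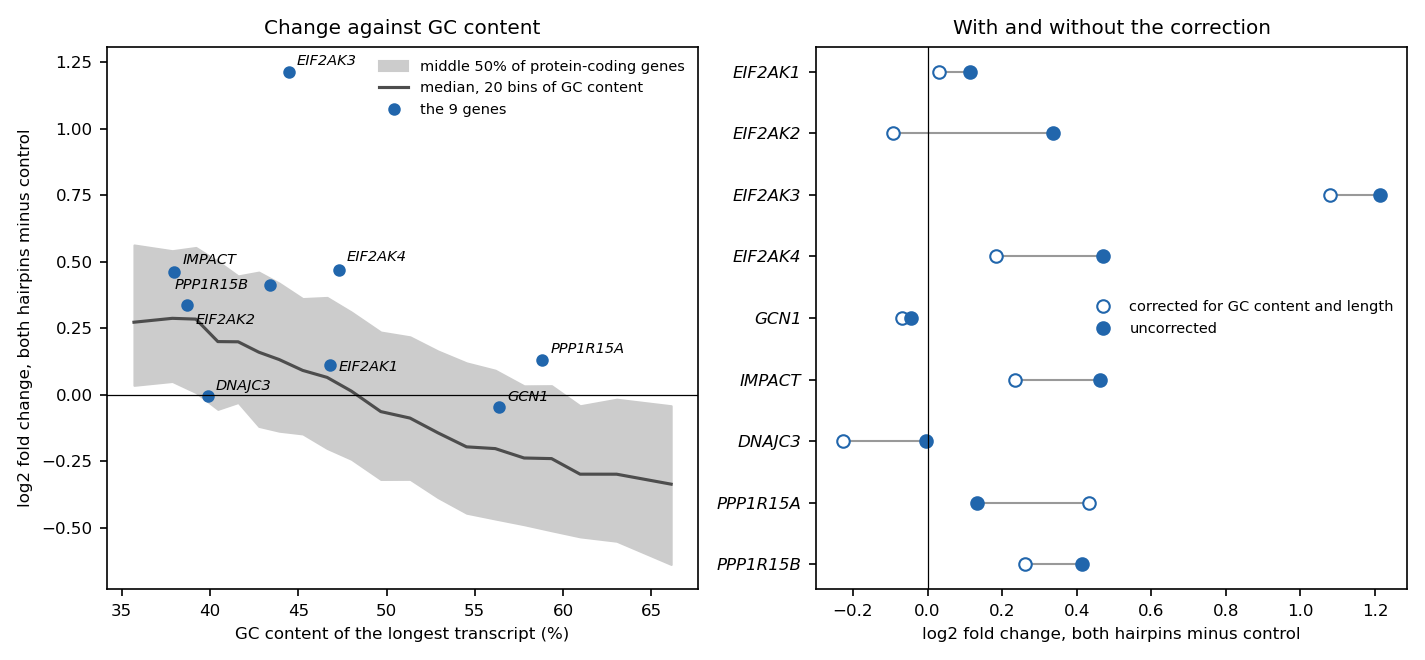
Left, log2 fold change over both hairpins against the GC content of the longest transcript, with the 9 genes as points, and the median and middle 50% of 13907 protein-coding genes in 20 bins. Right, the change of each gene after correction for GC content and length (open) and before it (filled), where EIF2AK3 lies at 1.08 after and 1.21 before it in this set of genes, and PPP1R15A at 0.43 after and 0.13 before it.

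The substrate and its exchange factor did not move as a unit. Of 9 tested genes for eIF2, eIF2B and the eIF2-GTPase activator EIF5, 4 rose, 3 fell and 2 did not pass over both hairpins (median −0.01). Of all genes tested, 23.6% were called higher and 26.4% lower. EIF2S1, the phosphorylated subunit, averaged 252 CPM with hairpin 1, 227 CPM with hairpin 2 and 203 CPM in controls, and rose by 0.24 (SE 0.03, edgeR adjusted p = 0.00045). EIF2S3, the gamma subunit, rose by 0.32 (SE 0.04, edgeR adjusted p = 0.00011), while the eIF2B subunits EIF2B3 (−0.44) and EIF2B4 (−0.33) fell. After the correction for GC content and length 2 of the 9 in this list were higher and 5 lower, against 22.5% and 30.8% of protein-coding genes.

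Catalytic subunits of protein phosphatase 1, the partners of PPP1R15A and PPP1R15B, split. PPP1CC averaged 331 CPM with hairpin 1, 224 CPM with hairpin 2 and 183 CPM in controls (log2 change 0.57 ± 0.04 SE, edgeR adjusted p = 1.6e-05). PPP1CB rose by 0.32 (SE 0.04, edgeR adjusted p = 0.00038) and PPP1CA fell by 0.21 (SE 0.03, edgeR adjusted p = 0.0011). With the actins ACTB and ACTG1, the cofactor of the phosphatase complex, the list had 2 higher and 3 lower of 5 (median −0.12). After the correction 3 were higher and 0 lower. The shares of all genes were 23.6% higher and 26.4% lower, and 22.5% and 30.8% of protein-coding genes after the correction.

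Activators and partners of the kinases form a list that shares SESN2 with the effectors and HSPA5 and HSP90B1 with the unfolded protein response genes. Genes of this list fell more often than they rose, with 11 lower, 3 higher and 6 not passing of 20 tested (median −0.19). The list mixes activators with genes that restrain a kinase, such as HSPA5 (−0.34) and HSP90B1 (−0.40), which bind PERK. These counts therefore give no direction of kinase activity. After the correction 13 were lower and 5 higher. Of all genes tested 26.4% were lower and 23.6% higher, and of protein-coding genes after the correction 30.8% and 22.5%. HSP90AB1, a chaperone that HRI and PKR depend on, averaged 973 CPM with hairpin 1, 2567 CPM with hairpin 2 and 3101 CPM in controls (log2 change −0.97 ± 0.03 SE, edgeR adjusted p = 1.2e-06). RPLP2, a protein of the ribosomal stalk that can activate GCN2, fell by 0.73 (SE 0.04, edgeR adjusted p = 5.8e-06). MAP3K20, the ribosome collision kinase ZAK, rose by 0.69 (SE 0.04, edgeR adjusted p = 7.2e-06).

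Effectors downstream of phosphorylated eIF2 rose more often than they fell over both hairpins, with 13 of 19 higher, 1 lower and 5 not passing (median 0.39). Among all genes tested, 23.6% were higher and 26.4% lower. After the correction 15 of the 19 were higher and 2 lower, against 22.5% and 30.8% of protein-coding genes. ATF4 mRNA averaged 483 CPM with hairpin 1, 427 CPM with hairpin 2 and 442 CPM in controls, a change of 0.04 over both hairpins (SE 0.03, edgeR adjusted p = 0.34), and rose by 0.13 with hairpin 1 (SE 0.04, edgeR adjusted p = 0.019). DDIT3, the stress factor CHOP, averaged 24.8 CPM with hairpin 1, 36.9 CPM with hairpin 2 and 28.8 CPM in controls, so it fell with hairpin 1 (−0.21, SE 0.08, edgeR adjusted p = 0.044) and rose with hairpin 2 (0.36, SE 0.08, edgeR adjusted p = 0.0040). SLC7A11, the cystine transporter, rose by 2.62 (SE 0.05), PSAT1 of serine synthesis by 0.62 (SE 0.04) and ASNS, asparagine synthetase, by 0.55 (SE 0.04), with edgeR adjusted p of 2.2e-08, 1.2e-05 and 9.9e-06. ASNS had 234 and 223 CPM with hairpin 1, 93.2 and 94.3 CPM with hairpin 2, and 98.4 and 101 CPM in controls, so its rise lay in hairpin 1 (log2 change 1.20, edgeR adjusted p = 5.1e-07).

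The hairpins differed in most of these effectors. Of the 19, 13 were lower and 3 higher with hairpin 2 than with hairpin 1 (median −0.58). Of the 9 genes 1 was lower and 0 higher, and of all genes tested 23.3% were lower and 22.9% higher. After the correction for GC content and length 13 of the 19 were lower and 2 higher. In that fit 4 of the 9 genes were lower and 1 higher, against 33% and 26.8% of protein-coding genes. With hairpin 1 alone 15 of the 19 were higher and 2 lower, against 24.2% and 24.9% of all genes. With hairpin 2 alone 9 were higher and 5 lower, against 23.9% and 25.4% of all genes. The lists were not tested against each other.

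Among the other sensors of the unfolded protein response and their targets, more genes fell than rose. Of 18 tested genes 11 fell, 4 rose and 3 did not pass over both hairpins (median −0.37), against 26.4% lower and 23.6% higher among all genes. After the correction 12 fell and 3 rose, against 30.8% and 22.5% of protein-coding genes. The chaperones and folding factors PDIA4 (−0.74, SE 0.03), MANF (−0.89, SE 0.04) and HYOU1 (−0.52, SE 0.03) had the smallest p, with edgeR adjusted p of 1.7e-06, 1.7e-06 and 7.1e-06. ERN1, the sensor IRE1 alpha, also rose. It averaged 12.6 CPM with hairpin 1, 14.3 CPM with hairpin 2 and 6.16 CPM in controls (log2 change 1.12 ± 0.09 SE, edgeR adjusted p = 2.6e-05). ATF6, the third sensor, changed by 0.12 over both hairpins (edgeR adjusted p = 0.090) and rose by 0.28 with hairpin 2 (edgeR adjusted p = 0.0037). ERN1 and ATF6 were singled out after their values were seen.

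**Figure D4:**
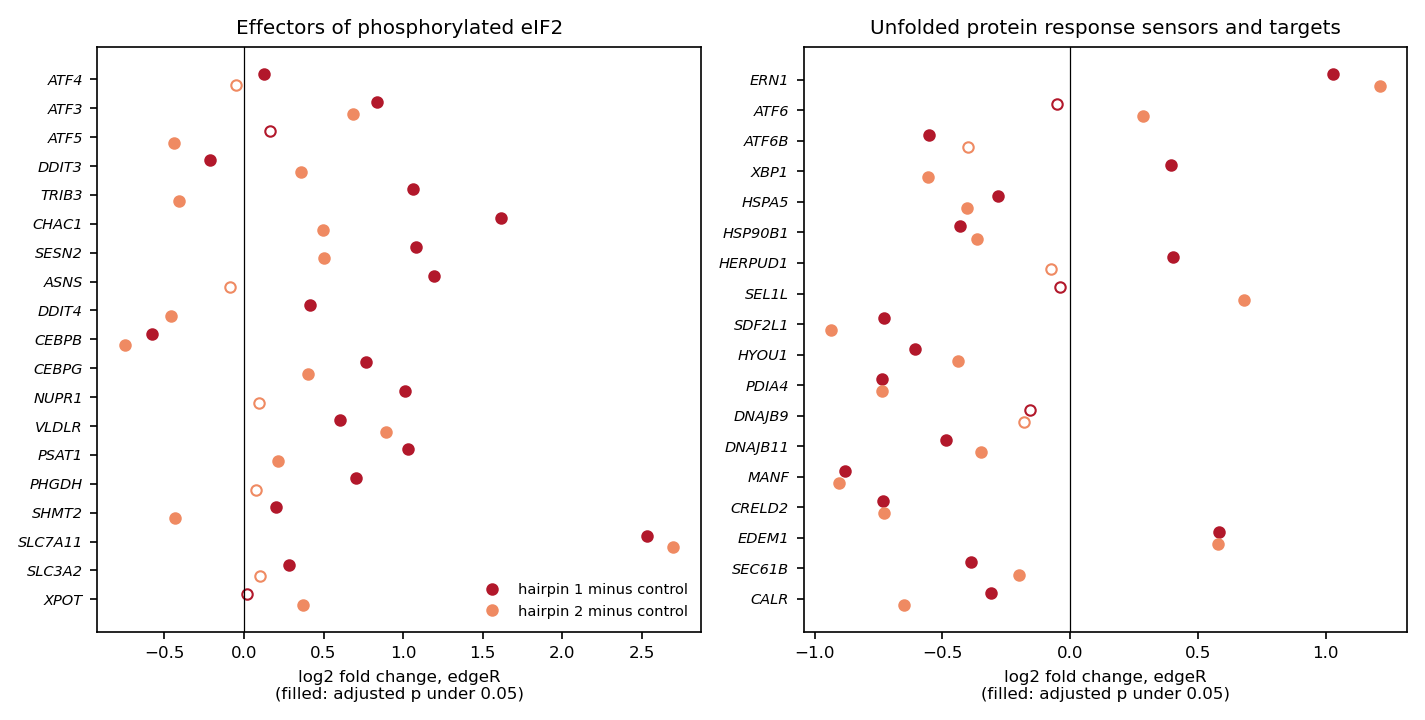
Log2 fold change against the control hairpin (x axis) for the 19 listed effectors of phosphorylated eIF2 (left) and the 18 listed genes of the unfolded protein response (right), hairpin 1 above hairpin 2 for each gene, filled where the edgeR adjusted p is under 0.05. Hairpin 1 points of the effectors mostly lie to the right of those of hairpin 2, and chaperone genes on the right panel lie below 0 with both hairpins.

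Genes with the profile nearest to each of the 9 were found by Euclidean distance between centred log2 CPM over the 6 libraries, among 11000 named genes averaging at least 5 CPM. Nearest to EIF2AK3 were ALG10B (distance 0.077, Pearson r = 0.9985) and EFR3A (distance 0.13, r = 0.9965). Nearest to EIF2AK4 were CREB1 (0.047) and M6PR (0.058), and to EIF2AK1 LBR (0.025) and ARMC8 (0.048). ACTR8 (0.054) was among the nearest to EIF2AK2. Nearest to IMPACT were ZNF621 (0.072) and CDC5L (0.072), to GCN1 SMARCD2 (0.046) and SETD6 (0.055), and to DNAJC3 VDAC2P5 (0.030) and CLCN5 (0.049). PPP1R15B was nearest to LRPPRC (0.029) and TBCK (0.034), and PPP1R15A to GPBP1L1 (0.055) and WSB2 (0.056). Over 6 libraries in 3 groups many genes share such profiles, so these names describe likeness only.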

How the data were processed

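Per the labels' protocols, total RNA (TRIzol) went into Illumina TruSeq RNA libraries. The submitters' processing notes name HISAT2 2.2.0, StringTie and hg38. What is not given in the sources used here: annotation release, counting options and strand use. The authors deposited raw counts, whole numbers, with a row for each Ensembl ID. Symbols came from a table that held 56105 of the 64252 IDs. Positions, exon lengths and GC content came from GENCODE release 29 (hg38), and promoter bases from RefSeq (GRCh38.p14).

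Genes were kept by edgeR's filterByExpr (minimum count 10), which left 18734, all 9 genes among them, and scaled with TMM. The quasi-likelihood test of edgeR 4.0.16 in R 4.3.3 had a term per group, no replicate term, and 1 estimate of the spread over all 6 libraries. Two-sided p-values were adjusted by the Benjamini-Hochberg method across the 18734 genes, and an adjusted p under 0.05 counted as passing. The F statistic gave standard errors and 95% intervals. The script was tested on simulated counts. Replicates differed by more than sampling noise (mean chi-square per gene 5.73 to 8.23, where noise alone gives about 1). The correction for GC content and length fitted splines of 5 degrees of freedom to each library's deviations over 13907 protein-coding genes and entered them as offsets.

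The alternatives were RLE scaling, no low-count filter, a filter of 1 CPM in 2 libraries, DESeq2 1.42.0, limma-voom 3.58.1, a replicate term, the correction with and without that term, only the groups compared, a fold threshold of 1.5 and leaving out each library. A fit of the protein-coding genes without correction was chosen after seeing the data. The 9 genes and the lists were chosen with earlier results of these data known. Genes named besides the 9, apart from ERN1, ATF6 and list members given for overlap, were BCAT1, ATF4, DDIT3, EIF2S1, PPP1CA, PPP1CB and PPP1CC, the 3 of each list with the smallest p over both hairpins, the marker and overlapping genes, and the 2 nearest profiles of each of the 9, of which 1 is not reported here.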

Additional observations from a re-analysis of the deposited data

Results flagged for a closer look

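Without a correction for GC content and length, EIF2AK3 was the single gene of the 9 whose change differed between the hairpins in a direct test, and with it 5 of the 9 did. It rose by 1.07 on the log2 scale with hairpin 2 and by 1.36 with hairpin 1, a difference of −0.28 (SE 0.07, edgeR adjusted p = 0.0096). Both hairpin 2 libraries lay below both hairpin 1 libraries and above both controls.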

How the results depend on the processing

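Of 603 recomputed log2 fold changes of the 9 genes, 503 kept their direction and their side of the threshold, 40 lost a call, 28 gained 1 and 32 changed sign, and the cause of these changes was not tested. EIF2AK3 rose over both hairpins in all 16 alternatives (1.08 to 1.25, highest adjusted p 0.00017). With a fold threshold of 1.5, 1 of the 9 passed over both hairpins and with each hairpin and 0 between hairpins, and 1039, 1769, 1397 and 1774 of all genes passed in the 4 comparisons, since that test asks for a larger change. Between hairpins, the count of 1 became 2 with the 1 CPM filter, in DESeq2, in the protein-coding genes and with only the groups compared, 5 with the correction for GC content and length, alone or with a replicate block, and 0 to 2 when a library was left out (0 without replicate 2 of hairpin 2, 2 without either control). Leaving out a library gave 5 to 6 calls over both hairpins and with hairpin 1, and 5 to 7 with hairpin 2.

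Over both hairpins DNAJC3 turned to 0.0044 with RLE scaling, 0.010 with the 1 CPM filter and 0.0045 in DESeq2. The correction, with the value under correction plus replicate block in brackets, gave EIF2AK2 −0.093 [−0.0925] over both hairpins, −0.015 [−0.015] with hairpin 1, −0.17 [−0.17] with hairpin 2 and −0.16 [−0.16] between hairpins. It gave GCN1 −0.019 [−0.019] and DNAJC3 −0.14 [−0.14] with hairpin 1, EIF2AK1 −0.0020 [−0.0020] with hairpin 2 and EIF2AK4 −0.014 [−0.014] between hairpins. Leaving out a library gave DNAJC3 −0.076 to 0.067 over both hairpins, −0.049 to 0.094 with hairpin 1 and −0.10 to 0.041 with hairpin 2, and GCN1 −0.094 to 0.0030 over both and −0.034 to 0.063 with hairpin 1. Between hairpins it gave EIF2AK1 −0.084 to 0.018, EIF2AK2 −0.013 to 0.035, EIF2AK4 −0.0009 to 0.089 and IMPACT −0.082 to 0.021.

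The labels do not tie replicate numbers across groups, and deviations of same-numbered libraries correlated at −0.038 to 0.0044. With the replicate block alone, calls among the 9 went to 5 over both hairpins and 5 with hairpin 1, both through EIF2AK1, and stayed at 6 and 1 in the other comparisons, with 9000 of all genes called over both hairpins. The 9 genes had 536 to 10063 counts per library, and 2 libraries per group limit the precision of each spread.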
